A study of Saccharomyces cerevisiae with 2 samples.

Results

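This account covers 10 genes of nitrogen use in Saccharomyces cerevisiae, 6 of allantoin breakdown (DAL1, DAL2, DAL4, DAL5, DAL7 and DCG1) and the 4 GATA-type transcription factors GAT1, GLN3, DAL80 and GZF3. They were chosen by the open reading frame (ORF) name of their array spot, out of 6207 ORFs on the arrays. The choice was made with the ratios of this same comparison known, so the members' values are given as a description and are not tested as a set. Cells of a sho1 mutant in the BY4741 laboratory background were grown in YEPD, a rich medium, at 24 °C and exposed for 3 hours to Zymolyase at 0.8 units per ml, or were left without the enzyme. Both conditions therefore carry the sho1 mutation, and no wild-type cells were analysed here. Sho1 is a membrane sensor of the osmotic stress pathway, and Zymolyase is an enzyme preparation that digests wall glucan. RNA of treated and untreated cells was hybridised together on 2 arrays with swapped dyes, with the treated RNA in Cy3 on array 1 and in Cy5 on array 2.

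Nitrogen catabolite repression is the system by which yeast keeps genes for poor nitrogen sources silent while a good source is present. Gln3 and Gat1 are its activators and bind GATA sequences in the promoters of target genes. On good nitrogen sources they are held out of the nucleus, with the help of Ure2 and under control of the TOR kinases. Dal80 and Gzf3 are repressors that compete for the same kind of site, and DAL80 is itself a target of the activators. The allantoin genes are classic targets of this circuit, and most of them also need the inducer-responsive regulators Dal81 and Dal82. Their products import allantoin or allantoate and break them down to urea, which is then split to ammonia and carbon dioxide.

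The direction of the deposited ratios is not stated in the sources used here. Both columns are read here as deposited, with a positive value taken as more transcript in treated than in untreated cells, a reading that no label settles. Turning the sign of both arrays would turn every direction below. Values from both arrays were given for 5311 ORFs, across which the columns had a Spearman rho of -0.26 and a Pearson r of -0.012, where genes are not independent replicates. The signs were opposite for 59.3% of these ORFs. If the columns were instead fixed-dye ratios, 1 array would have to be turned, and a gene with like values on both arrays would then have a mean near 0. At an unadjusted limma p under 0.05 there were 191 ORFs as deposited and 499 with array 1 turned. The 191 are 3.6% of the ORFs, which is below the share that a threshold of 0.05 would pass if no gene changed. At an adjusted limma p under 0.05 the counts went the other way, with 41 as deposited and 0 with array 1 turned. A free-text comment on the untreated channel of the second array speaks of a hog1 mutant, and the remaining labels of sho1. SHO1 had no value on either array, so its spot gave no check of the mutant. In whole cultures, a change in all cells and a larger change in a few of them cannot be told apart.

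Among the members, 2 allantoin genes had the most negative ratios and 1 GATA factor the most positive. DAL5 and DCG1 lay below 0 on both arrays, at mean log2 ratios of -0.41 and -0.37. GAT1 lay above 0 on both, at 0.61, and GLN3 followed at 0.20. DAL80, GZF3 and DAL2 lay between -0.16 and -0.0023. DAL1 and DAL4 had no value on either array and DAL7 had one on array 1 only, so 7 of the 10 members could be compared between arrays.

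**Figure D1:**
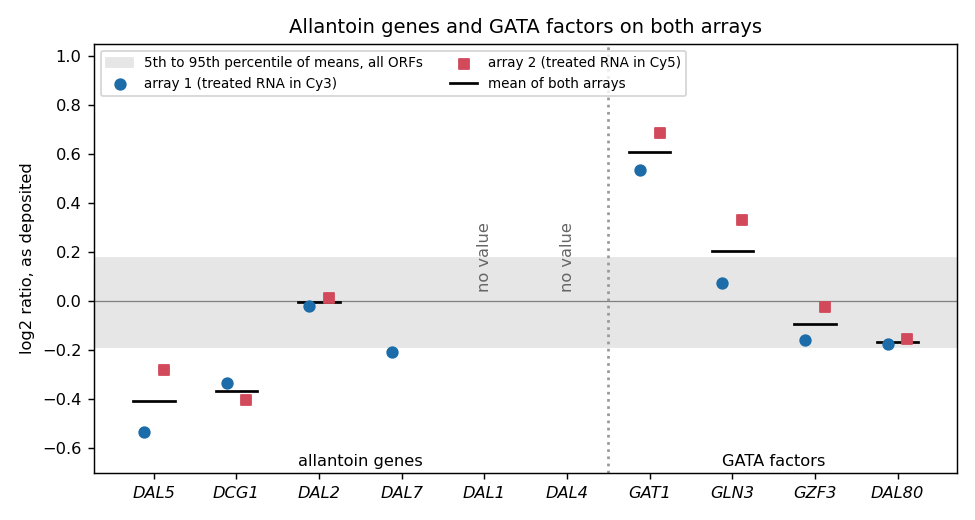
Deposited log2 ratios of the 10 members on array 1 (circles) and array 2 (squares), with the mean of both arrays as a line and the central range of the means of all ORFs, from -0.19 to 0.18, as a grey band. DAL5 and DCG1 lie below the band, GAT1 and GLN3 have means above it, and DAL1 and DAL4 have no value.

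DAL5 (YJR152W) encodes the permease that takes up allantoate and also carries ureidosuccinate and some dipeptides. It had a log2 ratio of -0.54 on array 1 and of -0.28 on array 2. Both values were below 0, and the array 1 value was the 26th lowest of the 5552 ORFs measured there, while the array 2 value was the 375th lowest of 5347. The mean of -0.41 ± 0.18 (SD, n = 2 arrays) corresponds to a 1.33-fold lower ratio, and it was the lowest mean of all 5311 ORFs with both values. In limma's test over all ORFs DAL5 had an adjusted p of 0.36, and 0 ORFs were called lower at a threshold of 0.05.

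DCG1 (YIR030C) lies within the allantoin gene cluster and is known to respond to nitrogen catabolite repression, but the function of its product is not known. The log2 ratios of DCG1 were -0.33 for array 1 and -0.40 for array 2. The arrays differed by 0.069, and this difference lay at percentile 21.1 of the absolute differences between arrays over all ORFs. Its mean of -0.37 ± 0.05 (SD, n = 2) was the 5th lowest of all ORFs, 1.29-fold below an equal ratio. DCG1 thus varied less between arrays than DAL5, whose difference of -0.26 between array 1 and array 2 lay at percentile 66.4. The adjusted p of DCG1 in limma's test over all ORFs was 0.55.

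DAL2 (YIR029W) encodes allantoicase, which converts allantoate to ureidoglycolate and urea. Its log2 ratios were -0.018 for array 1 and 0.013 for array 2, opposite in sign and close to 0 on both, with a mean of -0.0023 ± 0.022 (SD, n = 2). DAL7 (YIR031C) encodes a malate synthase that uses the glyoxylate released in allantoin breakdown. Its single value was -0.21 on array 1, at percentile 16.0 of that array. DAL1 (YIR027C) encodes allantoinase, the enzyme of the opening step, and DAL4 (YIR028W) the allantoin permease, and both are unmeasured here. Thus 2 of the 6 allantoin genes had no value, as had 619 of the 6207 ORFs, or 9.97%.

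GAT1 (YFL021W) encodes an activator that shares many targets with Gln3. It had log2 ratios of 0.54 for array 1 and 0.69 for array 2, or 1.45-fold and 1.61-fold. It ranked 107th from the top on array 1 and 41st on array 2, and its mean of 0.61 ± 0.11 (SD, n = 2) ranked 36th of 5311. In limma's moderated test over all 5311 ORFs, with Benjamini-Hochberg adjustment and a threshold of 0.05, 1 of the 7 members with both values was called, GAT1. The background share of calls was 0.772%, that is 41 ORFs, each above 0 in the mean. Since the members were chosen on this contrast, nothing is read from that count. The call of GAT1 was absent when the arrays were centred and scaled to a common spread, with a mean of 0.65, and when array 1 was turned, with a mean of 0.075.

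GLN3 (YER040W) encodes the other activator, which is known to be controlled mainly through its location in the cell. The log2 ratios of GLN3 were 0.077 for array 1 and 0.33 for array 2. The array 1 value was at percentile 72.4 of its array and the array 2 value at percentile 97.3, so its high rank came from array 2. The mean was 0.20 ± 0.18 (SD, n = 2). GAT1 was above GLN3 on both arrays, by 0.46 on array 1 and 0.35 on array 2.

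The repressor genes had small negative ratios. DAL80 (YKR034W), whose product represses many GATA-driven genes, was at -0.17 on array 1 and -0.16 on array 2, with a mean of -0.16 ± 0.013 (SD, n = 2), at percentile 7.72 of all means. GZF3 (YJL110C), also known as DEH1, encodes its close relative. It was at -0.16 on array 1 and -0.022 on array 2, with a mean of -0.091 ± 0.097 (SD, n = 2), at percentile 24.4. As deposited, both activators were above 0 and both repressors below 0 on each array. The array 2 value of GZF3 lay at percentile 49.8, at the array 2 median of all ORFs of -0.022. Since the members were chosen with these values known, nothing is read from these signs. The division of signs is not seen with array 1 turned, where all 4 GATA factors had means above 0, from 0.0090 to 0.13. As deposited, below 0 on both arrays were 26.8% of all ORFs and above 0 on both 14%, while 59.3% had opposite signs. GAT1 exceeded DAL80 by 0.71 on array 1 and 0.84 on array 2, and it exceeded GZF3 by 0.70 and 0.71 on the same arrays.

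**Figure D2:**
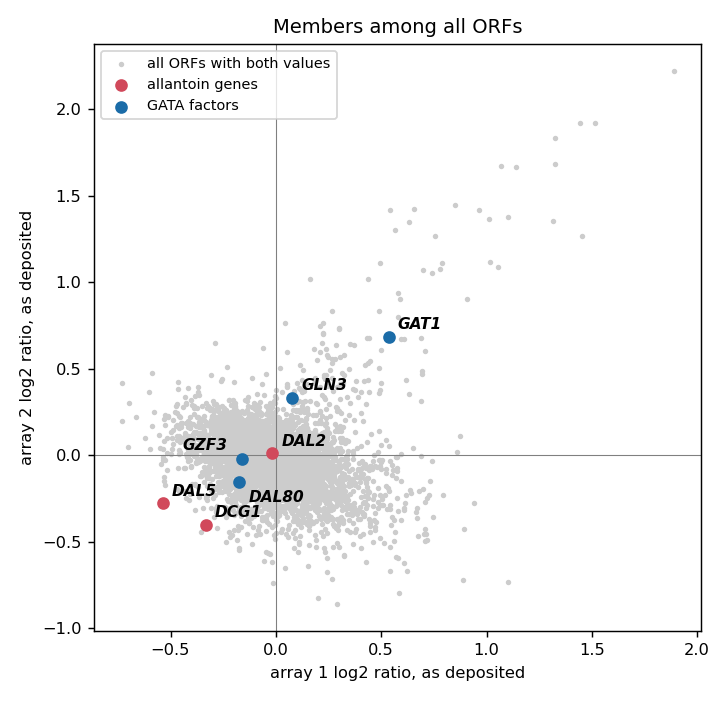
Deposited log2 ratio of each ORF on array 1 (horizontal axis) against array 2 (vertical axis), with all 5311 ORFs in grey, allantoin genes in red and GATA factors in blue. DAL5 and DCG1 sit at the lower left edge of the cloud, GAT1 lies towards the upper right, and DAL2, DAL80 and GZF3 lie inside it.

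Ordered by mean, the members with both values ran GAT1, GLN3, DAL2, GZF3, DAL80, DCG1 and DAL5. The ranges of the 2 arrays overlapped for GZF3 and DAL80 and for DCG1 and DAL5. Compared within arrays, GZF3 was above DAL80 on both, at -0.160 against -0.173 on array 1 and -0.022 against -0.155 on array 2. DCG1 was above DAL5 on array 1 and below it on array 2, so the order of that pair is not resolved. For the other neighbours in the order the array values did not overlap, although DAL2 and GZF3 came close, with a lowest DAL2 value of -0.018 and a highest GZF3 value of -0.022. With 2 arrays an exact sign-flip permutation test of any gene cannot give a two-sided p below 0.5.

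As groups, the allantoin genes had a median of -0.37 in the mean over arrays (3 genes), against 0.057 for the GATA factors (4 genes). On array 1 the medians were -0.27 for 4 allantoin genes and -0.042 for the GATA factors, and on array 2 they were -0.28 for 3 allantoin genes and 0.16 for the GATA factors. The allantoin genes were thus lower on both arrays, with differences, allantoin genes minus GATA factors, of -0.23 on array 1 and -0.43 on array 2. The groups were not separate gene by gene. DAL2 lay between the activator and the repressor genes in the mean, above DAL80 and GZF3, and the difference in the mean rests on DAL5 and DCG1. On array 1 the allantoin median also includes DAL7, at -0.21. No test is given, since members of a group are not replicates and were chosen with these values known. For all 5311 ORFs the median was -0.028.

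With array 1 turned, the fixed-dye reading, each member except DAL2 had a mean closer to 0 than as deposited. DAL5 had a mean of 0.13, DCG1 of -0.034 and DAL2 of 0.015 in that reading. GAT1 had 0.075, GLN3 0.13, GZF3 0.069 and DAL80 0.0090. The difference between group medians, allantoin genes minus GATA factors, was -0.056, against -0.42 as deposited.

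Gene lengths were set beside the ratios. In the R64 annotation DAL5 is 1632 bp long, GAT1 1533 bp and GZF3 1656 bp, and these 3 genes of like length had means of -0.41, 0.61 and -0.091. DCG1, at 735 bp, and DAL80, at 810 bp, are the shortest members. GLN3 is the longest at 2193 bp. Across 4999 ORFs with a length, length and log2 ratio had a Spearman correlation of 0.046 for array 1 and -0.038 for array 2, a description across genes that share libraries and arrays.

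The allantoin genes other than DAL5 are neighbours on chromosome IX, in the order DAL1, DAL4, DAL2, DCG1, DAL7 and DAL3, where DAL3 encodes ureidoglycolate lyase and is not one of the 10 members. No genome build is named for the arrays, so gene order is taken from R64 and no coordinates are given. DAL3 was at -0.20 on array 1 and 0.17 on array 2, with a mean of -0.014 ± 0.26 (SD, n = 2). Only DAL2, DCG1 and DAL3 of the cluster had values on both arrays, and DAL1 and DAL4 had none. Among those measured on both, DCG1 alone had 2 values below -0.3, while DAL2 beside it was near 0 on both arrays. On array 1 DCG1, DAL7 and DAL3, 3 adjacent genes, ran from -0.33 to -0.20, but on array 2 DAL3 was positive and DAL7 had no value.

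**Figure D3:**
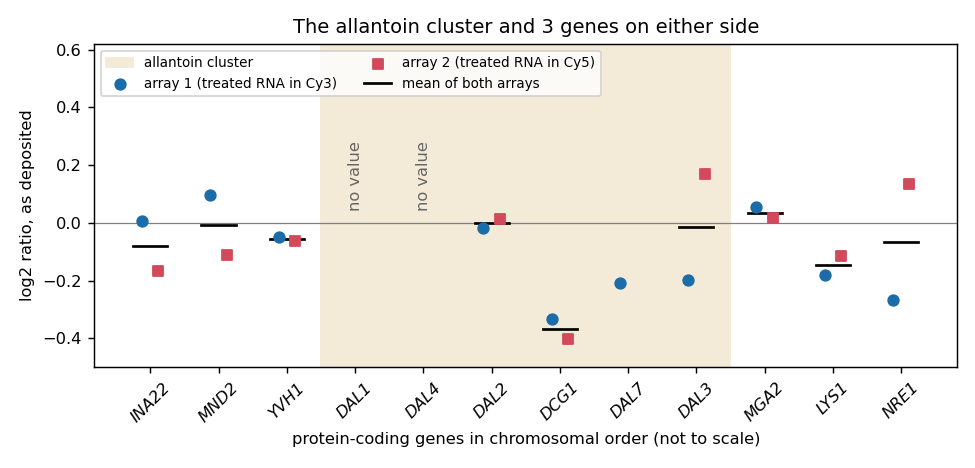
Deposited log2 ratios of the allantoin cluster (shaded) and 3 protein-coding genes on either side, in chromosomal order and not to scale, on array 1 (circles) and array 2 (squares) with their mean as a line. DCG1 has the lowest mean, at -0.37, and its neighbour DAL2 lies near 0.

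The genes flanking the cluster had means from -0.15 to 0.034. On the DAL1 side, YVH1, a protein phosphatase gene, had a mean of -0.056 ± 0.009, MND2, a subunit gene of the anaphase-promoting complex, -0.0078 ± 0.15, and INA22, a gene for an assembly factor of mitochondrial ATP synthase, -0.080 ± 0.12 (SD, n = 2 each). On the DAL3 side, MGA2, which encodes a membrane-bound activator of the fatty acid desaturase gene, had 0.034 ± 0.026, LYS1, saccharopine dehydrogenase, -0.15 ± 0.05, and NRE1 -0.066 ± 0.28. Of these 6 genes LYS1 and YVH1 were below 0 on both arrays and MGA2 above 0 on both. None passed limma's test over all ORFs.

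Values at the loci beside GAT1 were looked up after its ratio was seen. FRS2, a subunit gene of phenylalanyl-tRNA synthetase, was at -0.23 on array 1 and -0.033 on array 2. PAU5, of the seripauperin mannoprotein family, was at -0.36 on array 1 and 0.12 on array 2. Neither neighbour had the positive values of GAT1 on both arrays. PGU1, the coding gene after DAL5, had no value on either array.

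The genes with the most similar pair of ratios were found by Euclidean distance over the 2 log2 ratios, a likeness that rests on 2 arrays. Nearest to DCG1 were PRY1, whose secreted product binds sterols, at a distance of 0.046, VPS13, a lipid transfer protein gene, at 0.058, and ATH1, acid trehalase, at 0.059. YAR068W and PRP24 followed at 0.087 and 0.092. Nearest to DAL5 were OCT1, a mitochondrial peptidase gene, at 0.10, then YKL199C, MCP1, YDR222W and PEX21 at up to 0.12. DCG1 was the 31st nearest ORF to DAL5, at a distance of 0.24, and DAL5 was the 108th nearest to DCG1. DAL2, the only other allantoin gene with both values, was at 0.59 from DAL5 and 0.52 from DCG1. The ORFs nearest to GAT1, a lookup added after its value was seen, were SMC6, YBL101W-A, TFC1, EDC1 and RRT12, and GLN3 was the 141st nearest. Each of these 5 was also called by limma over all ORFs, but the call rests on the same 2 values as the likeness to GAT1 and adds nothing to it.

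Other genes of nitrogen use were taken from lists of 46 genes. Of the 46 listed genes, 40 had values on both arrays, and 0 of these 40 passed limma's test in either direction, with 0 at an unadjusted p under 0.05. Over all ORFs the shares were 0.772% past the adjusted threshold and 3.6% at an unadjusted p under 0.05, so a count of 0 in 40 is near the background. Their median was -0.061, against -0.028 for all ORFs. Below 0 on both arrays were 12 of them and above 0 on both 3, and 25 had opposite signs, beside shares of 26.8%, 14% and 59.3% over all ORFs. The lowest means among them were those of GLN1, glutamine synthetase, at -0.31 ± 0.73, and of RTG3, a retrograde pathway factor, at -0.29 ± 0.81 (SD, n = 2 each). Both were positive on array 1 and negative on array 2. No value on either array was given for 6 genes. These are the permease genes DUR3, PUT4, UGA4 and OPT2, the glutamate dehydrogenase gene GDH2 and the phosphatase regulator TAP42.

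The remaining genes for allantoin and urea use were measured at 4 of 5 spots, with a median of -0.013. DAL82, the coactivator gene that answers to the inducer allophanate, was at -0.31 on array 1 and -0.041 on array 2, the only 1 of the 4 with the same sign on both arrays. Its partner DAL81 was at 0.17 and -0.19. DUR12, the urea amidolyase gene, was at 0.043 and -0.046 on arrays 1 and 2. The gene of the urea-splitting step that ends the pathway thus lay close to 0, with opposite signs on the arrays. DAL4, the allantoin permease gene, and DAL1, of the opening step, had no value. Start and end of the pathway from allantoin therefore cannot be compared.

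The 12 measured regulators of nitrogen use had a median of -0.027, over values that went both ways. Their array 2 values had an SD over genes of 0.28, against 0.20 for all ORFs. They include the -0.86 of RTG3, the lowest of all array 2 values. On array 1 the SD over genes was 0.22 for the regulators and 0.22 for all ORFs. On both arrays 3 of the 12 regulators were below 0 and 1 was above 0, beside 26.8% and 14% of all ORFs. URE2, whose product retains Gln3 and Gat1 in the cytoplasm, was at 0.16 on array 1 and -0.13 on array 2. TOR1, a kinase gene of the TOR complex, was at 0.11 and 0.14, and PUT3, the activator gene of proline use, was at -0.21 and -0.16. RTG1, of the retrograde pathway, was at -0.090 and -0.024. None of the 12 passed the test, beside 0.772% of all ORFs.

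Genes of ammonia uptake and assimilation had a median of -0.098 over 7 measured genes. MEP3, an ammonium permease gene, had a mean of -0.15 ± 0.09 and GLT1, glutamate synthase, -0.098 ± 0.033 (SD, n = 2 each), and these were the 2 genes of the list below 0 on both arrays. MEP2, the high-affinity ammonium permease and sensor, was at -0.32 on array 1 and 0.099 on array 2. None of the 7 passed. Over all ORFs 0.772% passed and 26.8% were below 0 on both arrays.

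Further targets of nitrogen catabolite repression, 17 measured of 20, had a median of -0.084, and their means ran from -0.17 to 0.21. On both arrays 6 of them were below 0 and 2 above 0. The genes above 0 were CPS1, a vacuolar carboxypeptidase gene, at 0.13 and 0.28, and DIP5, an acidic amino acid permease gene, at 0.13 and 0.17. GAP1, the general amino acid permease and a standard reporter of Gln3 and Gat1 activity, was at 0.060 on array 1 and -0.23 on array 2. ASP3-3, of a family of 4 near-identical asparaginase genes whose spots cannot be told apart fully, was at -0.14 and -0.092. None of the 17 passed, and 9 had opposite signs on the arrays. Of all ORFs, 0.772% passed, 59.3% had opposite signs, 26.8% were below 0 on both arrays and 14% above 0 on both. Nothing particular to the list is read from these counts.

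Genes related to the members by sequence or family were described separately. Of 6 other genes for GATA-type zinc finger proteins, 4 were measured, each with opposite signs on the arrays, and their median was 0.032. Opposite signs were also seen for 59.3% of all ORFs. Of 13 genes of the transporter families of DAL5 and DAL4 and the DAL7 paralogue MLS1, 11 had both values, with a median of -0.043. YCT1, a cysteine transporter of the DAL5 family, was at -0.082 and -0.11, and the thiamine transporter genes THI7 and THI72 had means of -0.040 and 0.056. MLS1, the malate synthase of the glyoxylate cycle, was at -0.47 on array 1 and 0.089 on array 2, beside the -0.21 of DAL7 on array 1. None of these 15 genes passed the test, and 0 had an unadjusted p under 0.05, which at a background of 3.6% is near the share over all ORFs.

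**Figure D4:**
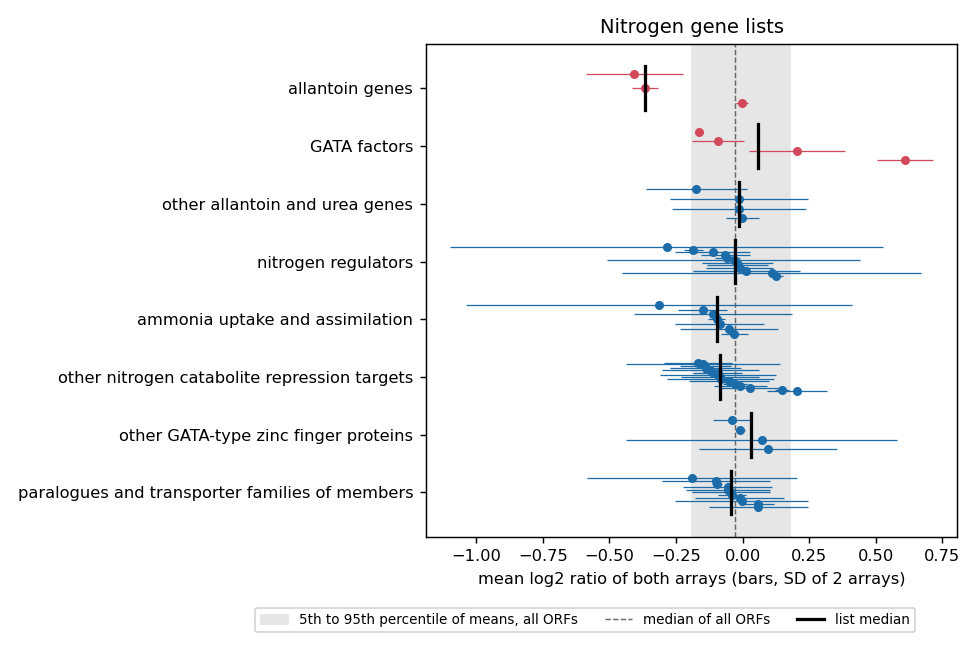
Mean log2 ratio over both arrays of each gene with 2 values (points, with the SD of the 2 arrays as bars), by list, with list medians as black lines, the median of all ORFs as a dashed line and the central range of all ORFs in grey. The allantoin genes DAL5 and DCG1 and the GATA factor GAT1 lie farther outside the grey range than any gene of the lists below them, and the longest bars are those of RTG3 and GLN1.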

How the data were processed

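The table deposited by the authors holds a log2 ratio for each ORF on each array. The base was found from the values, since powers of 2 gave multiples of 0.0001 (to within 1% of this step) for 100% of them. Scanner, background correction, normalization, the rule for missing values and the number of arrays behind each record are not stated in the sources used here. Of 6209 rows, 2 control rows were left out. All 75 listed ORF names matched R64 locus tags. Whether the arrays share cultures is unstated, so p-values reflect array-to-array spread alone, possibly technical, and the number of arrays limits precision. That spread is largely pooled over all ORFs, with 23.5 prior degrees of freedom against 1 residual. It also holds any dye effect of a gene, since the dyes were swapped between the 2 arrays.

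The mean ratio was tested against 0 with limma 3.58.1 (R 4.3.3, lmFit, eBayes, two-sided, Benjamini-Hochberg over 5311 ORFs). The fit had 1 residual and 23.5 prior degrees of freedom. Its code was run on simulated data, drawn with limma's own fitted variances and independent arrays. Such data cannot show whether that model holds for these 2 arrays. Members and lists were chosen with earlier results of these data known. Named are the members, in each list any gene past the test and the 3 with the largest smaller absolute value of one sign, the cluster with 3 neighbours each side, and the 5 nearest ORFs to DCG1 and DAL5; other genes were named after their values were seen. Alternatives were a turned array, centring, scaling, single arrays, robust variances and ORFs with 1 value. Tables and plots were made with matplotlib 3.10.9, scipy 1.17.1, numpy 2.4.6, pandas 2.3.3 and Python 3.11.15.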

Additional observations from a re-analysis of the deposited data

How the results depend on the processing

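The count of calls and the allantoin median changed most with the array orientation. With array 1 turned, 0 ORFs passed limma's test (499 at an unadjusted p under 0.05), against 41 as deposited, the median of the allantoin genes was 0.015, the allantoin minus GATA difference was -0.056 and the median of the other nitrogen genes was 0.029. With centred arrays 54 ORFs passed and the other nitrogen genes had a median of -0.035. With centred and scaled arrays 21 passed, their median was -0.036, and the call of GAT1 was lost. Robust variances gave 40 calls and ORFs with at least 1 value 45. On single arrays the allantoin median ran from -0.33 to -0.28 over genes with both values, the allantoin minus GATA difference from -0.43 to -0.29, and the GATA median from -0.042 to 0.16 and the other nitrogen median from -0.082 to -0.053. ORFs below 0 on both arrays numbered 1421 as deposited, 1549 with array 1 turned and 1046 with centring. DAL2, near 0, changed sign with centring. The cause of these shifts was not tested. No paired analysis was possible because the arrays form 1 group. Signal over background is unknown here.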

Other observations

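RTG3 and GLN1, outside the 10 members and named after their values were seen, stood apart by their disagreement between arrays. RTG3 encodes a transcription factor of the retrograde pathway, which supplies 2-oxoglutarate precursors for glutamate, and GLN1 encodes glutamine synthetase, a standard target of Gln3. RTG3 was at 0.29 on array 1 and -0.86 on array 2, and GLN1 was at 0.20 on array 1 and -0.83 on array 2. These were the lowest and the 2nd lowest of the 5347 values on array 2. The differences between arrays lay at percentiles 99.7 and 99.5 of all ORFs. Array 1 alone would place both genes above 0 and array 2 alone at the bottom of all ORFs, so no direction is given for either. Their means were -0.29 and -0.31 as deposited and -0.58 and -0.51 with array 1 turned.

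VID30, a ubiquitin ligase subunit gene, was at 0.51 on array 1 and -0.29 on array 2. NPR1, a kinase gene that controls nitrogen permeases, was at 0.30 on array 1 and -0.37 on array 2. Among the other GATA-type zinc finger genes, GAT2 was at 0.43 on array 1 and -0.29 on array 2. These 3 genes were positive on array 1 and negative on array 2, as RTG3 and GLN1 were. Of all 5311 ORFs with both values 1549 had that pattern of signs, so it is not particular to these genes.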
